A study of Mus musculus with 17 samples.

Results

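The genes that encode the proteins of the cytosolic ribosome were followed in ribosome-bound RNA from the mediobasal hypothalamus of young mice. They were taken by gene symbol (Rpl or Rps followed by a number, with an optional letter and digits after it, or Rplp0, Rplp1, Rplp2 and Rpsa), which left out kinases of the Rps6k family and genes named as pseudogenes. The rule found 80 of the 15355 genes of the table, 47 of the large subunit and 33 of the small subunit. All samples came from RiboTag mice of the POMC line, in which the HA-tagged form of Rpl22 is made in cells where the pro-opiomelanocortin (Pomc) driver is or has been active. Their RNA was pulled down with an antibody to HA. Dams were put on a 45% high-fat diet (HFD, Research Diets D12451) or on standard Teklad chow at 6 weeks of age, were mated after 4 weeks and stayed on the same diet until weaning. The offspring formed 4 groups: HFD at postnatal day 21 (P21, weaning; n = 4), chow at P21 (n = 3), HFD at postnatal day 0 (P0; n = 5) and chow at P0 (n = 5). The labels call the samples biological replicates without giving the animals, litters or sexes behind each. The p-values below speak only of spread among samples, and the gene tests draw each gene's spread towards that of genes of similar level.

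The large subunit of the ribosome forms the peptide bond and the small subunit reads the messenger RNA, and their proteins are needed in nearly equal numbers. Most of their mRNAs start with a terminal oligopyrimidine (TOP) tract, a C followed by a run of C and T (U in the RNA), through which mTOR signalling and Larp1 set how much of them is loaded on ribosomes. Growing and dividing cells generally make more ribosomes than cells that have left the cell cycle. Rpl22 has a separate part here, since it is the gene that the RiboTag strategy modifies: Cre recombination swaps its last exon for one that carries the HA tag. In mice, Rpl22 protein is known to repress the mRNA of its paralog Rpl22l1.

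Values are normalised signal in CPM-like units (reads scaled by a factor per library), at a depth of 22.4 to 37.1 M reads per library (M, mega). The library sums were not equal, from 907950 (HFD P0 replicate 4) to 1.10e+06 (HFD P21 replicate 3). In HFD offspring every P21 sum exceeded every P0 sum, and in chow offspring the sums of the ages overlapped. From library to library 1 read counted for 0.0275 to 0.0460 units, and no member was at 0 in any library, the lowest value being 1.17. For the labelled cell type, 15 POMC neuron markers, all in the table, were summed. They gave 17381 to 20132 in HFD P21 and 11658 to 18999.9 in chow P21. At P0 they gave 2333 to 6042 in HFD and 2267 to 5834 in chow libraries. By mean, Cpe (1539 in HFD P0, 1666 in chow P0) and Scg2 (663 and 791) led these P0 sums. Pomc was at 335 and 645 and Cartpt at 13.4 and 31.9, so the sums do not settle the cell type at P0. Markers of other cells were also read. The 12 of 12 listed genes of the oligodendrocyte lineage summed to 4010.5 to 7322 in HFD P21, 8245 to 18299 in chow P21, 357 to 482 in HFD P0 and 449.6 to 1073 in chow P0. Other lists were also higher in chow P21 than in HFD P21 without overlap. Astrocyte, radial glia and tanycyte markers summed to 1301 to 2297 in HFD P21 and 2407 to 3784.5 in chow P21. Microglia markers gave 184 to 286 and 330 to 565, and endothelial and mural markers 59 to 97.0 and 122 to 174. At P0 these lists overlapped between the diets. No gene of these lists was at 0 in every library of a group. Fewer cells of a type and less RNA per cell cannot be told apart in such libraries.

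Levels within the family spanned a wide range. Per kilobase of exon (all annotated exons of a gene joined), in chow P0 libraries, the 5 highest members were Rpl41, which encodes one of the smallest proteins of the ribosome, at 630.2 ± 236 units, the small-subunit gene Rps29 at 522 ± 224, the large-subunit gene Rpl36 at 508 ± 162, the stalk gene Rplp1 at 476 ± 125 and the large-subunit gene Rpl38 at 442 ± 119 (SD, n = 5). The median member stood at 122 units per kilobase. The SDs of these 5 overlap, so their order is not resolved. The 5 lowest were Rpl30 at 0.940 ± 0.166, Rps27 at 1.99 ± 0.680, Rpl34 at 2.11 ± 0.192, Rpl22 at 16.8 ± 3.51 and Rps15a at 16.9 ± 4.03 units per kilobase. Rpl30 stood below Rps27 and Rpl34, which overlapped each other, and these 3 stood well below Rpl22 and Rps15a, which also overlapped. With the length of the principal transcript in place of the joined exons, the same 5 were lowest and 2 of the 5 highest were kept. The median was then 286. Rps15a has 6270 exonic bases and the longest principal transcript of the family, 5179 bases. Its low place per kilobase therefore depends on the annotated length under either choice. Its signal itself was 73.1 to 131 units in chow P0.

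How a read is assigned matters for this family, because ribosomal protein genes have many processed copies in the genome. Of the 80 members, 79 are annotated as protein-coding. The row Rps4y2 corresponds to Rps4l, a transcribed processed pseudogene on chromosome 6. Over the exons of a member, the share of stretches of 50 bases, the read length, that also occur in the transcripts of another annotated gene reached 95.1% for Rpl35, with a median of 37.1%. It exceeded 50% in 28 members and was below 10% in 7. For the paralogs it was 5.16% for Rpl22, 58.9% for Rpl22l1, 7.48% for Rpl7l1 and 46.2% for Rps27. The 3 members with a mean level under 10 units were Rpl30 (72.8% shared), Rps27 (46.2%) and Rpl34 (11.0%). Exons of another gene covered more than 10% of the exons of 15 members, among them Rpl35, which overlaps Wdr38 over 66.2% of its exonic length. How reads that match several places were counted, and on which strand, is not given in the sources used here, so levels of members with a high share are uncertain.

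Annotated start sites of the members on which the results below turn are shown because the TOP tract begins at the first transcribed base. Each window holds 15 bases before the start and 15 from it, in the direction of transcription, from RefSeq on GRCm38.p6. The first 5 bases from the RefSeq start are in capitals. These starts differ from the gene edges in GENCODE M21. Rpl22 starts at 152325726 in RefSeq and its gene begins at 152325742 in GENCODE, so its window lies outside that gene. For Rps2 the positions are 24720063 and 24718116. The windows lie at chr4:152325711-152325740, plus strand (Rpl22), chr3:28805493-28805522, plus strand (Rpl22l1), chr17:46782642-46782671, minus strand (Rpl7l1), chr2:39005117-39005146, minus strand (Rpl35), chr17:24720048-24720077, plus strand (Rps2), chr9:120127751-120127780, plus strand (Rpsa), chr10:23787195-23787224, minus strand (Rps12) and chr10:128626492-128626521, minus strand (Rps26).
Rpl22: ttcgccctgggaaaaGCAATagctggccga
Rpl22l1: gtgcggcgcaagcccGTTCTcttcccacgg
Rpl7l1: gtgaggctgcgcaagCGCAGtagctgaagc
Rpl35: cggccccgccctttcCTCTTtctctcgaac
Rps2: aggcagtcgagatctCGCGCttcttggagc
Rpsa: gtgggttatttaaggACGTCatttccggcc
Rps12: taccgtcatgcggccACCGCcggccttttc
Rps26: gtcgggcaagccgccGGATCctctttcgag
Rpl35 began with C and had an unbroken run of 11 pyrimidines from the annotated start. In Rpl22l1, Rps2 and Rps26 a C followed by 4 pyrimidines began within 5 bases of it. Rpl22, Rpl7l1, Rpsa and Rps12 had no such stretch there, and starts of other annotations were not read. Of the 59 members with a RefSeq start window, 12 (20.3%) had a C followed by 4 pyrimidines at the start itself, against 2.45% of 26966 other genes, and 28 (47.5%) had it beginning within 5 bases either side, against 18.4%. In the 250 bases before to 50 after the start, CCGGAAG was found on either strand in 23 members (39.0%, against 9.06% of other genes) and AAGATGG in 9 (15.3%, against 6.46%), and TATAAA stood 40 to 20 bases before the start in 1 (1.69%, against 2.22%). These are matches of letters and not mapped sites.

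The members together took a smaller share of the signal at weaning than at birth. Their summed signal was 1.53, 1.27, 1.65 and 1.13% in the HFD P21 libraries and 1.49, 1.32 and 1.31% in the chow P21 libraries, against 2.39, 3.15, 2.68, 2.26 and 1.35% in the HFD P0 libraries and 2.82, 2.66, 1.82, 1.99 and 1.59% in the chow P0 libraries. The P21 libraries lay at or below 1.65%, the P0 libraries at or above 1.35%, and replicate 5 of HFD P0 was the only P0 library below the highest P21 library of its own diet. In chow offspring the ages did not overlap. The mean share was 1.39 ± 0.236% in HFD P21 (SD, n = 4) and 1.37 ± 0.102% in chow P21 (n = 3), against 2.37 ± 0.661% in HFD P0 and 2.18 ± 0.539% in chow P0 (n = 5 each). Newborn libraries spread more than weaning libraries.

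**Figure D1:**
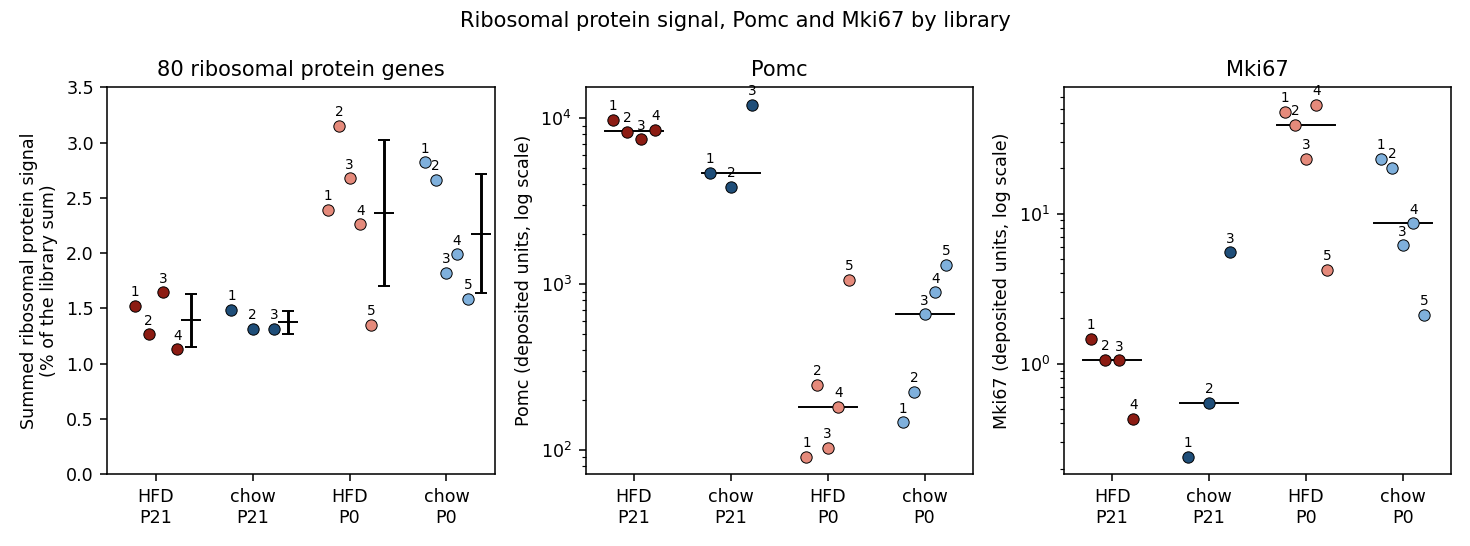
Left, the percent of each library's signal taken by the 80 members (linear axis, points are libraries, bars are the mean ± SD); middle and right, Pomc and Mki67 signal in the same libraries (log axes, line at the median), for HFD P21, chow P21, HFD P0 and chow P0. P21 libraries sit between 1.13% and 1.65% and P0 libraries between 1.35% and 3.15%.

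Among the newborn libraries Pomc and Mki67, one of the proliferation markers, are set beside this share. Pomc signal was 9818, 8268, 7460.1 and 8528 in the HFD P21 libraries and 4679, 3878 and 12069.6 in the chow P21 libraries, against 90.7, 246, 102, 181 and 1057 in the HFD P0 libraries and 146, 224, 657, 891 and 1308 in the chow P0 libraries. Mki67 signal was 1.47, 1.06, 1.05 and 0.430 in the HFD P21 libraries and 0.240, 0.550 and 5.51 in the chow P21 libraries, against 47.4, 38.8, 23.2, 52.9 and 4.21 in the HFD P0 libraries and 23.0, 20.2, 6.13, 8.61 and 2.12 in the chow P0 libraries. The 4 newborn libraries with the lowest ribosomal share (HFD P0 replicate 5 and chow P0 replicates 3, 4 and 5) had the 4 highest Pomc values and the 4 lowest Mki67 values of the 10 P0 libraries. Another marker of the list, Top2a, did not follow this order, with 9.73, 10.2, 8.31, 7.49 and 9.98 in HFD P0 and 11.1, 6.21, 12.3, 9.56 and 7.13 in chow P0, highest in chow replicate 3. The 10 of 10 listed proliferation markers summed to 62.2 to 87.0 in HFD P21, 53.7 to 89.4 in chow P21, 166 to 192 in HFD P0 and 142 to 185 in chow P0, and none was at 0 throughout a group. The part of cell composition in the age differences below was not tested.

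The members moved as a block from library to library. With group means removed, the Pearson correlation of a member's log2 signal with the mean of the other members had a median of 0.968 over the 17 libraries, and 72 of 80 members were above 0.8. All points share the library and its scaling. The same correlation was not read for other genes, so it does not show that moving together is particular to these members. The 4 members below 0.5 were Rpl7l1 (-0.48), Rps4y2 (-0.46), Rpl34 (0.41) and Rpl30 (0.43), of which the last 2 have levels under 10 units. On the log2(signal + 1) scale the widest mean SD within groups belonged to Rps12 (0.54), Rps2 (0.48) and Rpl27a (0.43), and the narrowest to Rpl30 (0.13), Rpl4 (0.14) and Rpl5 (0.15). The added 1 compresses the spread of low members: on log2 of the signal itself Rpl30 was at 0.19, the narrowest were Rpl4 (0.14), Rpl5 (0.15) and Rps3 (0.16), and the widest were Rps12 (0.54), Rps2 (0.48) and Rps27 (0.46).

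In offspring of chow-fed dams, 44 of 80 members fell at P21 relative to P0 and none rose (limma on log2 of the signal plus 1, Benjamini-Hochberg adjusted p under 0.05 over all genes tested). Of all genes tested, 17.7% fell and 18.3% rose. The median log2 difference of the members was -0.54, that of all genes tested was -0.01, and 75 of 80 members were below 0. The members' values did not overlap between ages in 48 cases, all lower at P21, where 17.9% of all genes were lower without overlap and 19.3% were higher. Large-subunit members had a median of -0.48 (22 of 47 fell) and small-subunit members one of -0.64 (22 of 33 fell). The count was 18 without chow P21 replicate 2 and 23 without replicate 3. It was 32 (31 lower and 1, Rpl3, higher) without chow P0 replicates 1 and 2, the newborns with the least Pomc, and edgeR on the reads recovered in 1 P21 and 3 P0 libraries called 0 members, 9 having an unadjusted p under 0.05, with a median of -0.59. That fit has a single P21 library, so its spread is taken from the P0 libraries.

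In offspring of HFD-fed dams, 35 members fell and 3 rose (Rpl34, Rpl22l1 and Rpl7l1), where 26.2% of all genes fell and 24.7% rose. The median member differed by -0.49, against -0.05 for all genes, and 73 of 80 were below 0. All 35 members that fell here are among the 44 that fell in chow offspring, which is 79.5% of that list and 100% of this one. The same overlap was not read over all genes, so it does not set the members apart from them. Without overlap, 7 members were lower and 1, Rpl34, was higher, where 19.7% of all genes were lower and 19.0% higher. Replicate 5 of HFD P0 accounts for part of the overlap: without it 44 members were lower and 1 higher without overlap, where 25.8% of all genes were lower and 25.1% higher, and 35 members still overlapped. Without that library, 58 members passed the test, and without HFD P21 replicate 4 it was 24. Large-subunit members had a median of -0.35 (17 fell and 3 rose) and small-subunit members one of -0.57 (18 fell).

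**Figure D2:**
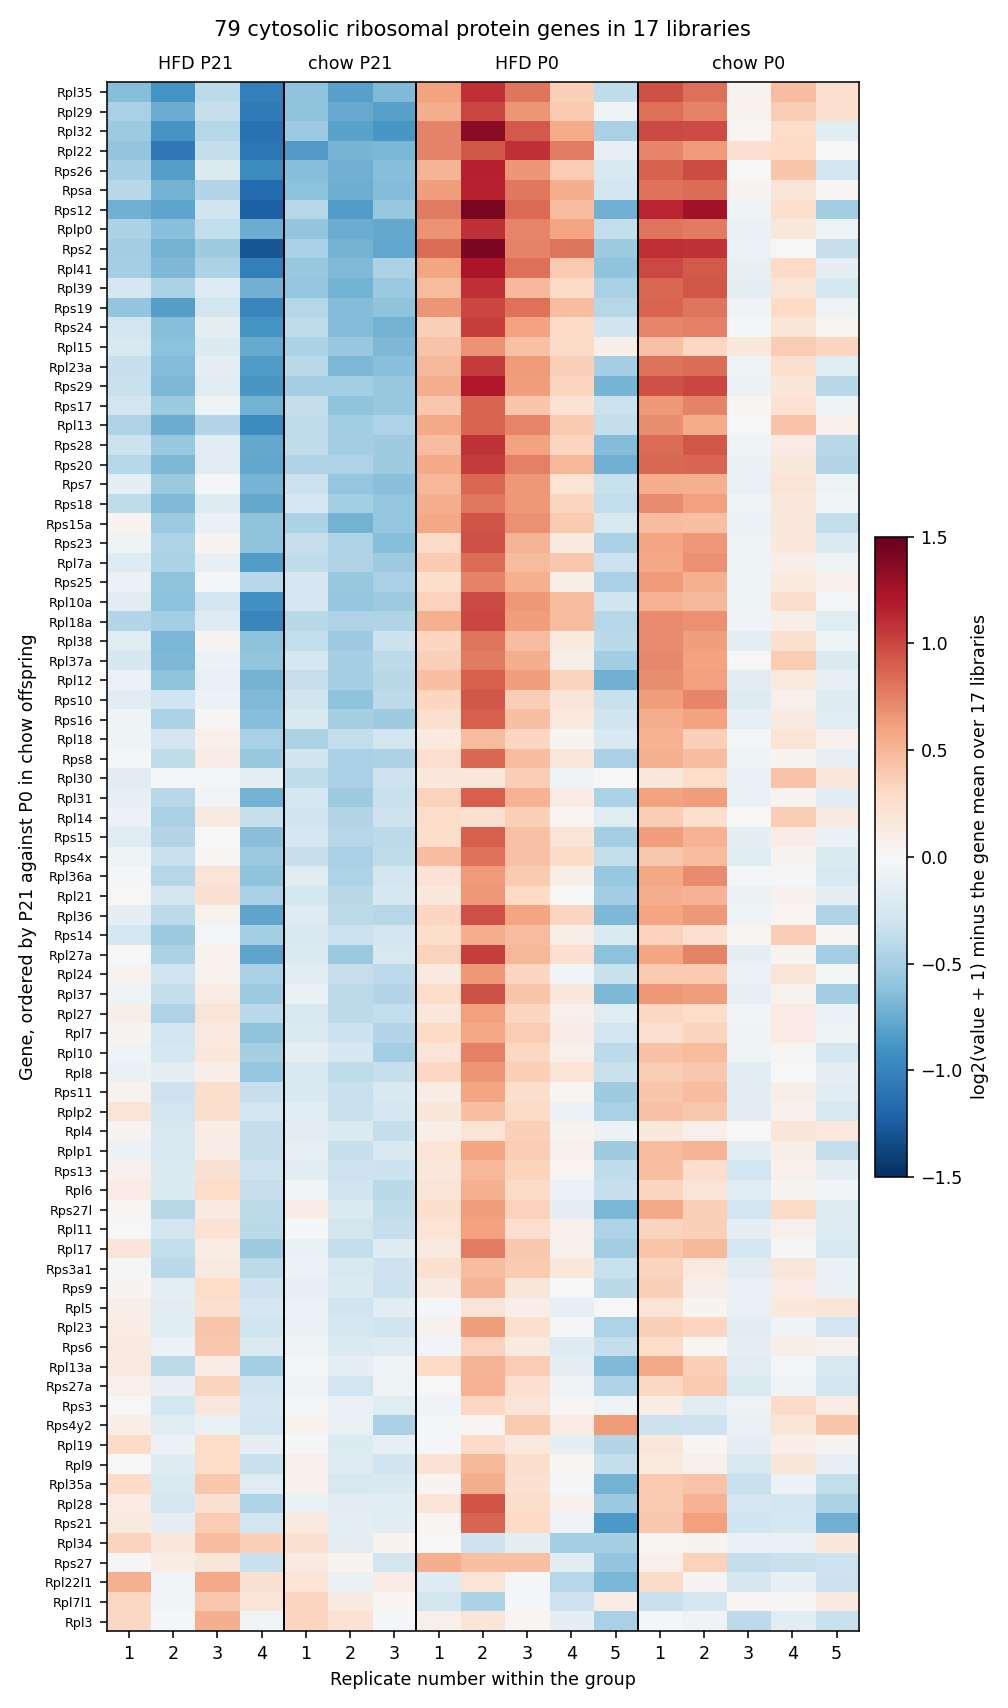
Each row is 1 of 79 members, ordered by its P21 minus P0 difference in chow offspring, and each column 1 library (HFD P21, chow P21, HFD P0, chow P0); colour is log2(signal + 1) minus the gene's mean over the 17 libraries, from -1.5 to 1.5. Most rows are low in the 7 P21 libraries, and HFD P0 replicate 5 resembles them more than the other P0 libraries do.

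The largest falls in chow offspring were in Rpl35, which lies near the exit of the peptide tunnel, and in the large-subunit genes Rpl29, Rpl32 and Rpl22, followed by Rps26, which lines the mRNA exit of the small subunit. Rpl35 had 169.7, 142, 202 and 130.0 in the HFD P21 libraries and 173, 151 and 167 in the chow P21 libraries, against 402, 569, 462, 339 and 204 in the HFD P0 libraries and 513, 469.5, 276, 366 and 314 in the chow P0 libraries. All P21 values lay below all P0 values, with HFD P0 replicate 5 just above the highest of them. The log2 difference of Rpl35, P21 minus P0, was -1.20 (SE 0.20, adjusted p = 0.000529) in chow and -1.23 (SE 0.25, adjusted p = 0.001) in HFD offspring.

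Rpl29 had 112, 93.8, 124 and 75.2 in the HFD P21 libraries and 103, 92.8 and 89.0 in the chow P21 libraries, against 230.4, 317, 249.9, 208 and 152 in the HFD P0 libraries and 281, 264, 164, 205 and 186 in the chow P0 libraries. No P21 library reached a P0 library of the same diet. Its difference was -1.17 (SE 0.19, adjusted p = 0.000348) in chow and -1.17 (SE 0.21, adjusted p = 0.000392) in HFD offspring. Rpl32 had 131, 104, 142 and 88.0 in the HFD P21 libraries and 131, 109 and 104 in the chow P21 libraries, against 322, 489.5, 362, 282 and 136 in the HFD P0 libraries and 381, 379.8, 196, 232 and 171 in the chow P0 libraries. HFD P0 replicate 5 again fell among the P21 libraries of that diet. Rpl32 differed by -1.16 (SE 0.26, adjusted p = 0.00347) in chow and -1.36 (SE 0.29, adjusted p = 0.00145) in HFD offspring.

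Rps26 had 79.0, 63.0, 96.9 and 57.3 in the HFD P21 libraries and 71.6, 67.4 and 71.9 in the chow P21 libraries, against 161, 253, 178, 147 and 95.8 in the HFD P0 libraries and 208, 223, 113, 150.2 and 91.7 in the chow P0 libraries. The HFD groups overlapped by that library and the chow groups did not. Rps26 differed by -1.07 (SE 0.26, adjusted p = 0.00595) in chow and -1.12 (SE 0.24, adjusted p = 0.00161) in HFD offspring. In the HFD offspring the leading falls were Rpl22, Rps2 and Rpl32, then Rps12, a protein of the small-subunit head, and Rpsa, a small-subunit protein also known as the laminin receptor.

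Rps2, which lines the mRNA entry channel of the small subunit, had 281, 248, 279.8 and 166 in the HFD P21 libraries and 289.8, 247 and 237 in the chow P21 libraries, against 723, 1084, 682, 711 and 280.3 in the HFD P0 libraries and 865, 862, 381, 408 and 319 in the chow P0 libraries. HFD P0 replicate 2 was the highest library and HFD P0 replicate 5 lay within the P21 range. Rps2 differed by -1.01 (SE 0.31, adjusted p = 0.0233) in chow and -1.42 (SE 0.30, adjusted p = 0.00154) in HFD offspring. Rps12 had 52.2, 49.5, 70.0 and 36.2 in the HFD P21 libraries and 63.7, 48.0 and 58.1 in the chow P21 libraries, against 148, 233, 156, 120.4 and 52.0 in the HFD P0 libraries and 191, 209, 82.5, 103 and 59.9 in the chow P0 libraries. In chow, P0 replicate 5 lay within the P21 range for Rps12, so those groups overlapped as well. Rps12 differed by -1.02 (SE 0.35, adjusted p = 0.0342) in chow and -1.32 (SE 0.33, adjusted p = 0.00463) in HFD offspring.

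Rpsa had 346, 282, 339 and 207 in the HFD P21 libraries and 302, 277 and 294 in the chow P21 libraries, against 713, 1031, 799, 677 and 378 in the HFD P0 libraries and 816, 828, 476, 528 and 467 in the chow P0 libraries. For Rpsa no P21 value reached a P0 value of either diet. It differed by -1.05 (SE 0.22, adjusted p = 0.00222) in chow and -1.25 (SE 0.25, adjusted p = 0.000934) in HFD offspring. Rplp0, the base of the stalk that binds elongation factors, differed by -1.02 (SE 0.23, adjusted p = 0.00365) in chow and -1.10 (SE 0.24, adjusted p = 0.00152) in HFD offspring.

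The other end of the family held members that did not share the lower level at weaning. Rpl3, which lies near the peptidyl transferase centre of the large subunit, had 612, 482, 721 and 482 in the HFD P21 libraries and 617, 576 and 488 in the chow P21 libraries, against 521, 561, 502, 446 and 352 in the HFD P0 libraries and 489, 476, 376, 441 and 390.4 in the chow P0 libraries. The ages overlapped in both diets, in chow only between the lowest P21 and the highest P0 library. Rpl3 differed by 0.37 (SE 0.16, adjusted p = 0.0869) in chow and 0.27 (SE 0.18, adjusted p = 0.227) in HFD offspring, and did not pass the test in either. Rpl34, a large-subunit gene of low level, had 7.19, 6.35, 7.97 and 7.32 in the HFD P21 libraries and 6.61, 4.88 and 5.74 in the chow P21 libraries, against 5.51, 4.24, 4.89, 3.56 and 3.60 in the HFD P0 libraries and 5.66, 5.73, 5.06, 5.10 and 6.29 in the chow P0 libraries. Its values overlapped in chow offspring and were higher in every P21 library of HFD offspring, with differences of 0.03 (SE 0.26, adjusted p = 0.934) and 0.63 (SE 0.25, adjusted p = 0.048). The call of Rpl34 in HFD offspring was lost when any 1 of 8 of the 9 libraries was left out. Rpl22l1 and Rpl7l1 also rose at P21 in HFD offspring, by 0.55 and 0.41 (limma adjusted p = 0.0319 and 0.0476). Each of the 3 rises was lost when every library was scaled to the same sum. None of the 3 was called in every fit with 1 library left out.

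**Figure D3:**
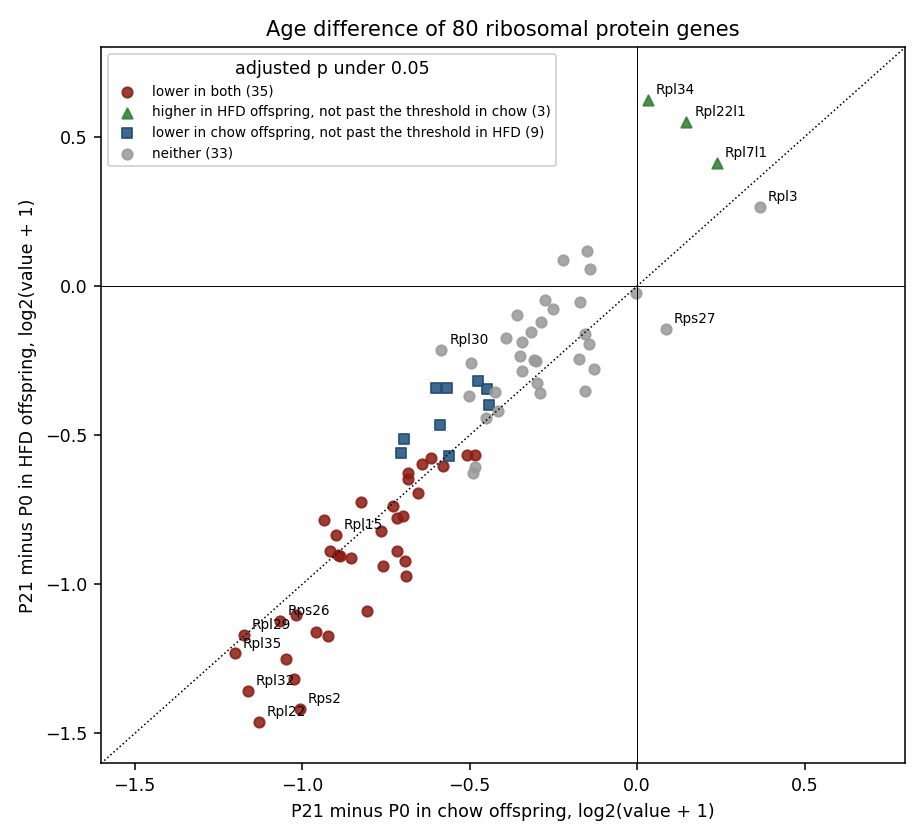
Each point is 1 member, with its P21 minus P0 difference in log2(signal + 1) in HFD offspring on the vertical axis and in chow offspring on the horizontal axis; colours mark the 35 that fell in both diets, the 9 that fell in chow and did not pass in HFD offspring, the 3 that rose in HFD offspring and the 33 that passed in neither. Points of the 2 diets rest on different libraries.

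Members were also set against the family's own median, which takes out what all of them share. With each library centred on the median log2 level of its ribosomal protein genes, 2 members were higher at P21 in chow offspring, Rpl3 (0.88) and Rpl22l1 (0.66), and 4 were lower, Rpl22 (-0.62), Rpl29 (-0.66), Rpl32 (-0.65) and Rpl35 (-0.69). On this scale 30.1% of all genes were higher and 5.29% lower, since centring moves the median of all genes to 0.50. In HFD offspring 6 members were higher, led by Rpl34 (1.10), Rpl22l1 (1.03) and Rpl7l1 (0.89) and followed by Rpl3 (0.74), Rpl19 (0.59) and Rps6 (0.56), and 12 were lower, led by Rpl22 (-0.98), Rps2 (-0.94) and Rpl32 (-0.88). There 30.9% of all genes were higher and 9.36% lower, with the median of all genes at 0.42. Rps6 is the ribosomal protein phosphorylated by S6 kinase. In the tests on the deposited scale Rps6 differed by -0.22 (SE 0.15, adjusted p = 0.261) in chow and 0.09 (SE 0.18, adjusted p = 0.702) in HFD offspring.

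Large- and small-subunit members differed unequally between the ages. The summed signal of large-subunit members divided by that of small-subunit members was 1.58 ± 0.0116 in HFD P21 (SD, n = 4) and 1.59 ± 0.0125 in chow P21 (n = 3), against 1.46 ± 0.0375 in HFD P0 and 1.49 ± 0.0485 in chow P0 (n = 5 each). All 7 P21 libraries, 1.57 to 1.59 and 1.57 to 1.60, lay above all 10 P0 libraries, 1.41 to 1.51 and 1.44 to 1.54. These sums compare genes of different lengths, so the ratio is not one of subunits.

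Rpl22 was among the 5 largest falls in both diets. The gene lies at chr4:152325742-152334071 and its paralog Rpl22l1 at chr3:28805436-28807424 (GRCm38, GENCODE M21). Rpl22 had 23.8, 16.8, 28.4 and 16.6 in the HFD P21 libraries and 19.8, 22.2 and 22.3 in the chow P21 libraries, against 61.8, 70.6, 78.9, 62.7 and 33.5 in the HFD P0 libraries and 61.4, 57.2, 43.7, 45.2 and 36.6 in the chow P0 libraries. Every P21 library was below every P0 library, and HFD P0 replicate 5 was the lowest newborn. The difference was -1.13 (SE 0.20, adjusted p = 0.000749) in chow and -1.46 (SE 0.25, adjusted p = 0.000315) in HFD offspring. Rpl22l1 had 125, 83.7, 128 and 101 in the HFD P21 libraries and 99.4, 80.0 and 93.9 in the chow P21 libraries, against 75.2, 98.3, 84.5, 63.9 and 53.0 in the HFD P0 libraries and 106, 88.4, 72.0, 79.3 and 68.8 in the chow P0 libraries. Its ages overlapped in both diets, with differences of 0.15 (SE 0.17, adjusted p = 0.53) in chow and 0.55 (SE 0.20, adjusted p = 0.0319) in HFD offspring.

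The ratio of Rpl22l1 to Rpl22 separated the ages without overlap. It was 5.24, 4.98, 4.51 and 6.09 in the HFD P21 libraries and 5.02, 3.61 and 4.21 in the chow P21 libraries, against 1.22, 1.39, 1.07, 1.02 and 1.58 in the HFD P0 libraries and 1.72, 1.55, 1.65, 1.76 and 1.88 in the chow P0 libraries. The log2 difference between ages was 1.31 in chow offspring (SE 0.15, exact 2-sided permutation test, p = 0.0357, the smallest this design allows, adjusted p = 0.107 over 12 ratio tests), which is 2.49-fold. In HFD offspring it was 2.06 (SE 0.15, 4.17-fold, exact p = 0.0159, the smallest possible, adjusted p = 0.0952). At P0 the log2 ratio differed by -0.46 between HFD and chow offspring (SE 0.13, exact p = 0.0159, adjusted p = 0.0952), with only HFD replicate 5 inside the chow range. At P21 the diets differed by 0.29 (exact permutation p = 0.171, adjusted p = 0.257), where the smallest possible p is 0.0571. None of the 12 tests passed 0.05 after adjustment, and the diet tests at P21 could not pass with so few libraries. The 4 newborn libraries with the most Pomc had ratios of 1.58 (HFD replicate 5) and of 1.65, 1.76 and 1.88 (chow replicates 3, 4 and 5), and the part of that difference between libraries in the diet comparison was not tested. The files give gene totals, so the tagged and untagged forms of Rpl22 were not read apart here.

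**Figure D4:**
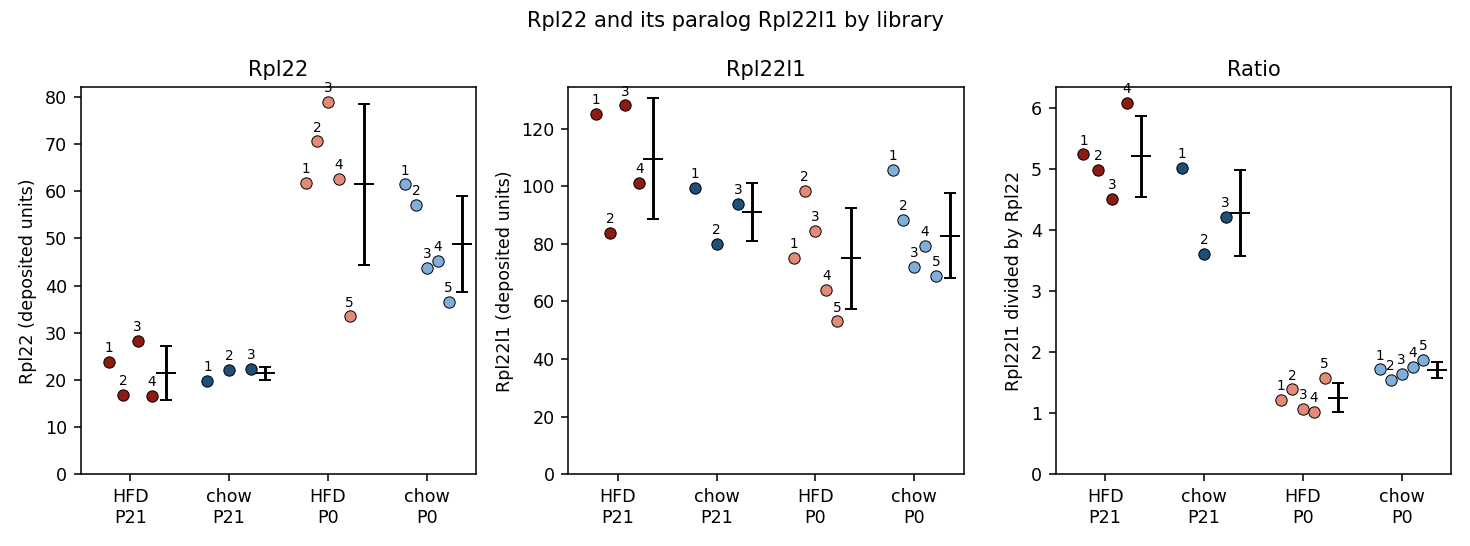
Signal of Rpl22 (left) and Rpl22l1 (middle), and the ratio of Rpl22l1 to Rpl22 (right), in HFD P21, chow P21, HFD P0 and chow P0; points are libraries and bars the mean ± SD. The ratio lies between 3.61 and 6.09 at P21 and between 1.02 and 1.88 at P0.

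The other paralog pairs were read in the same way. Rpl7l1, a paralog of Rpl7, had 129, 101, 138 and 118 in the HFD P21 libraries and 129, 114 and 105 in the chow P21 libraries, against 85.4, 74.0, 102, 83.4 and 112 in the HFD P0 libraries and 82.2, 85.9, 106, 105 and 115 in the chow P0 libraries. Rpl7 had 268, 213, 286 and 171 in the HFD P21 libraries and 225, 208 and 192 in the chow P21 libraries, against 320.2, 388, 339.8, 282 and 213 in the HFD P0 libraries and 310.1, 328, 251, 283 and 249 in the chow P0 libraries. Only Rpl7 in chow offspring separated the ages, with every P21 library lower. Rpl7 differed by -0.44 (SE 0.15, adjusted p = 0.0335) in chow and -0.40 (SE 0.20, adjusted p = 0.107) in HFD offspring, and Rpl7l1 by 0.24 (SE 0.16, adjusted p = 0.26) and 0.41 (SE 0.16, adjusted p = 0.0476). The ratio of Rpl7l1 to Rpl7 was higher at P21 by 0.68 in chow (exact permutation p = 0.0357, adjusted p = 0.107) and by 0.82 in HFD offspring (exact permutation p = 0.0635, adjusted p = 0.127). Rps27l, a target of p53 and paralog of Rps27, differed by -0.31 (SE 0.21, adjusted p = 0.287) in chow and -0.25 (SE 0.24, adjusted p = 0.415) in HFD offspring, and Rps27 itself by 0.09 (SE 0.31, adjusted p = 0.853) and -0.14 (SE 0.31, adjusted p = 0.721) at levels of 1.17 to 3.78 units. The X-linked Rps4x differed by -0.51 (SE 0.18, adjusted p = 0.0428) and -0.57 (SE 0.21, adjusted p = 0.0374), and the Rps4y2 row by -0.16 (SE 0.20, adjusted p = 0.573) and -0.35 (SE 0.17, adjusted p = 0.0919). Rpl10 and Rpl39, both X-linked, differed by -0.43 (SE 0.19, adjusted p = 0.097) and -0.93 (SE 0.26, adjusted p = 0.0138) in chow and by -0.35 (SE 0.21, adjusted p = 0.171) and -0.79 (SE 0.25, adjusted p = 0.0176) in HFD offspring. The paralogs Rpl3l, Rpl10l, Rpl39l and a row named Rps4l were not analysed here.

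Maternal diet gave no called difference in any member at either age. At P0, HFD against chow, limma called 0 of 80 members, no member had an unadjusted p under 0.05, and edgeR on the reads recovered in 5 libraries also called 0. Of all genes, 0.291% passed. HFD replicate 5 and chow replicates 3, 4 and 5 had the most Pomc and the lowest ribosomal share of the P0 libraries. These libraries are unequally split between the diets, and their part in this comparison was not tested. The members' median difference was 0.08, against 0.00 for all genes, with 60 of 80 above 0 and a range from -0.30 (Rpl34) to 0.35 (Rps15a). No member separated the diets without overlap, where 1.71% of all genes were lower and 0.738% higher in this way. Rps15a, a small-subunit gene, had 142, 182, 153, 125 and 79.9 units in HFD P0 and 131, 129.7, 89.0, 107 and 73.1 in chow P0. The groups overlapped, with 125 and 79.9 in HFD P0 inside the chow range and the other HFD values above it. By smallest unadjusted p the next members at P0 were Rpl22 at 0.30 (SE 0.22, adjusted p = 0.717) and Rps4y2 at 0.26 (SE 0.18, adjusted p = 0.696) above 0, and Rpl34 at -0.30 (SE 0.22, adjusted p = 0.714), Rpl22l1 at -0.16 (SE 0.18, adjusted p = 0.847) and Rpl7l1 at -0.11 (SE 0.15, adjusted p = 0.873) below 0.

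At P21, limma again called 0 of 80 members (none with an unadjusted p under 0.05), where 0.178% of all genes passed. The median difference was 0.09, against -0.02 for all genes, with 63 members above 0 and a range from -0.20 (Rpl13) to 0.30 (Rpl30). Only Rpl30 separated the diets, with 1.96, 2.28, 2.27 and 2.03 units in HFD P21 and 1.56, 1.38 and 1.70 in chow P21, where 8.34% of all genes were higher and 7.78% lower without overlap. Rpl30 differed by 0.30 (SE 0.30, limma adjusted p = 0.645) at a level near 2 units. The SDs of its own values were 0.164 units in HFD P21 and 0.160 in chow P21, so that SE rests largely on other genes of similar level. Above 0 the members with the smallest p were Rps15a at 0.28 (SE 0.19, adjusted p = 0.463), Rpl22l1 at 0.25 (SE 0.18, adjusted p = 0.5) and Rps6 at 0.22 (SE 0.15, adjusted p = 0.503), and below 0 they were Rpl13 at -0.20 (SE 0.15, adjusted p = 0.531), Rpl41 at -0.10 (SE 0.15, adjusted p = 0.769) and Rps12 at -0.15 (SE 0.22, adjusted p = 0.771). The members' median moved between -0.01 and 0.20 as single libraries were left out at P21, and between -0.07 and 0.24 at P0.

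The diet difference was not called as different between the ages either. In the fit with a diet by age term, limma called 0 of 80 members, none of them having an unadjusted p under 0.05, where 0.0266% of all genes passed. The median was 0.00, with 40 members on each side, and the range ran from -0.41 (Rps2) to 0.59 (Rpl34). Rpl34 at 0.59 (SE 0.32, adjusted p = 0.381), Rpl22l1 at 0.40 (SE 0.27, adjusted p = 0.484) and Rps6 at 0.31 (SE 0.23, adjusted p = 0.53) led above 0, and Rpl22 at -0.33 (SE 0.34, adjusted p = 0.661), Rpl13 at -0.28 (SE 0.31, adjusted p = 0.685) and Rps2 at -0.41 (SE 0.48, adjusted p = 0.709) led below 0.

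**Figure D5:**
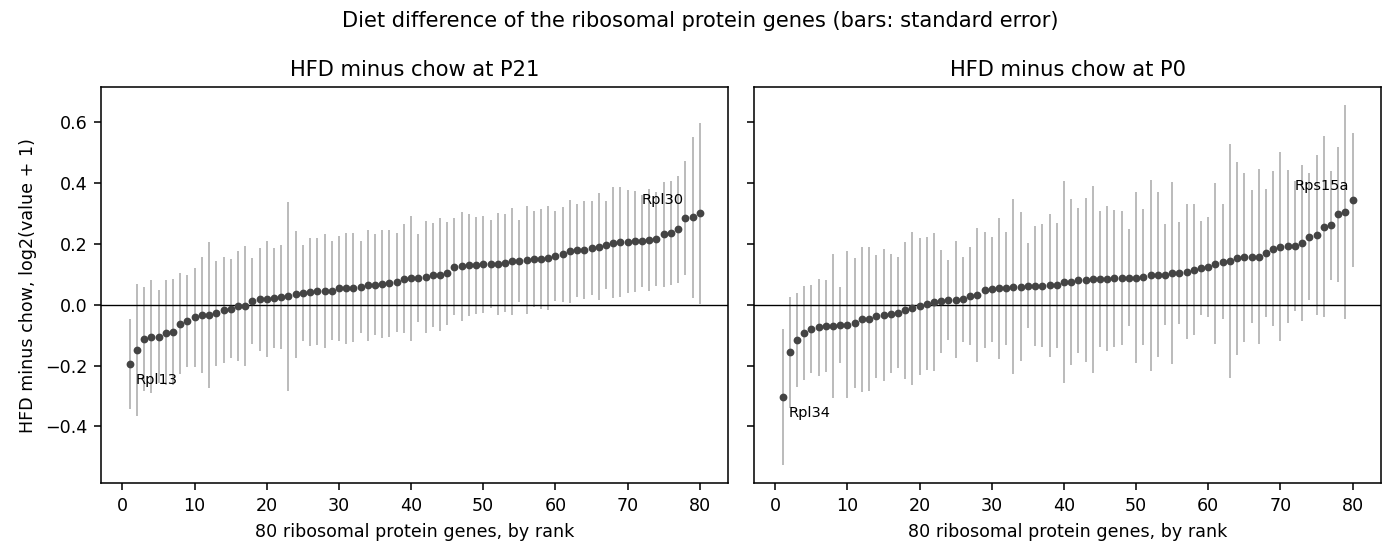
HFD minus chow difference in log2(signal + 1) for each of the 80 members, ranked from the lowest, with bars of 1 SE, at P21 (left) and P0 (right). Members range from -0.20 to 0.30 at P21 and from -0.30 to 0.35 at P0, and none passes the adjusted test.

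Other genes of the translation machinery did not all follow the ribosomal proteins with age, and none of these lists had a called gene in either diet comparison or in the diet by age term (limma). Their counts stand against 18.3% of all genes higher and 17.7% lower at P21 in chow offspring, and 24.7% higher and 26.2% lower in HFD offspring. Mitochondrial ribosomal proteins, which build the separate ribosome of mitochondria, had 19 of 76 genes (25.0%) higher and 3 (3.95%) lower at P21 in chow offspring (median 0.18) and 37 (48.7%) higher and none lower in HFD offspring (median 0.45). Examples are Mrps12, at 1.02 (adjusted p = 9.93e-05) in chow and 1.46 (adjusted p = 4.19e-06) in HFD offspring, and Mrps14, at 0.86 (adjusted p = 0.000593) and 1.16 (adjusted p = 6.58e-05). The summed signal of cytosolic members divided by that of mitochondrial ones was 2.45 ± 0.168 in HFD P21 and 2.57 ± 0.0582 in chow P21, against 5.00 ± 1.23 in HFD P0 and 4.37 ± 1.02 in chow P0 (SD, n = 4, 3, 5 and 5), with all P21 libraries below all P0 libraries.

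Elongation factors and other TOP mRNAs had 1 of 23 genes (4.35%) higher and 9 (39.1%) lower in each diet (medians -0.45 in chow and -0.22 in HFD offspring). Pabpc1, the poly(A)-binding protein, was lower at -1.13 (adjusted p = 0.00244) and -1.80 (adjusted p = 1.53e-05), and the neuronal and muscle form of elongation factor 1 alpha, Eef1a2, was higher at 1.69 (adjusted p = 1.96e-05) and 2.18 (adjusted p = 3.54e-05). Regulators of ribosomal protein mRNAs had 2 of 23 (8.70%) higher and 6 (26.1%) lower in chow and 2 (8.70%) higher and 13 (56.5%) lower in HFD offspring. They include Myc, a transcription factor that drives ribosome production, at -3.13 (adjusted p = 1.40e-06) and -2.90 (adjusted p = 2.10e-07), and Mycn at -2.56 (adjusted p = 2.77e-06) and -2.59 (adjusted p = 4.46e-07). Initiation and termination factors had 2 of 31 (6.45%) higher and 7 (22.6%) lower in chow and 6 (19.4%) higher and 7 (22.6%) lower in HFD offspring, below the share over all genes in HFD offspring in both directions, among them Eif4a2, a helicase, at 1.14 (adjusted p = 4.71e-05) and 1.44 (adjusted p = 2.69e-06). Ribosome biogenesis factors had 2 of 47 (4.26%) higher and 5 (10.6%) lower in chow and 8 (17%) higher and 6 (12.8%) lower in HFD offspring, below the share over all genes in each case, with Sbds at 1.48 (adjusted p = 3.24e-05) and 1.95 (adjusted p = 7.98e-07) and Nhp2 at -1.06 (adjusted p = 0.000408) and -1.13 (adjusted p = 0.000177).

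Among ribosomal genes outside the naming rule, Gnb2l1 (Rack1, a scaffold on the small subunit) fell by 0.56 in chow offspring (limma adjusted p = 0.0112). Fau, a ubiquitin-like fusion with a small-subunit protein, differed by -0.15 in chow and -0.21 in HFD offspring, and did not pass.

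The lower level at weaning was compared across properties that the gene names do not set. Of the members with over 50% of their exonic sequence shared with other genes, 14 of 28 fell in chow offspring, against 22 of 35 with 20 to 50% and 8 of 17 with under 20%, and the medians were -0.51, -0.58 and -0.48. In HFD offspring the medians were -0.42, -0.58 and -0.42, with 10, 17 and 8 members that fell. The principal transcripts of members were 345 to 5179 bases long, with a median of 886.5. Other genes with a principal transcript under 1 kb had a median of 0.15 in chow and 0.23 in HFD offspring, while the 50 members of that length had -0.54 and -0.56. Members with a C and 4 pyrimidines within 5 bases of the annotated start had a median of -0.59 in chow offspring (16 of 28 fell), against -0.50 for those without (17 of 31), and -0.58 against -0.44 in HFD offspring.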

How the data were processed

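Ribosome-bound RNA pulled down from 17 samples was sequenced as 50-base single reads, per the labels' protocols. The submitters' processing notes name TopHat2 2.0.13, HTSeq 0.6.1, Picard 1.80, FastQC and edgeR, with mm10 as build, and their settings are not known here. The deposited table holds the authors' normalised signal per gene, which is not a count, and 15 further columns that are empty. Because that scaling ties members to the rest of each library, a share taken by other genes can move them.

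From the table, log2(signal + 1) was tested with limma 3.58.1 (R 4.3.3), trend on, within the groups compared, at a Benjamini-Hochberg threshold of 0.05. A gene was tested if its signal exceeded 1 in a number of libraries no less than the size of the smaller group, and all 80 members were tested in each comparison. Ratios used exact permutation tests. Depth came from the size of 1 read in the values, with at least 99.99% of values within 0.0051 units, the table's rounding, of a whole number of reads. By the stricter measure of 0.1 read, all low values were whole in 6 libraries, and 50% to 84.7% in the others. The rounding of 0.0051 units exceeds 0.1 read even at the largest read size, 0.0460 units. A lower share therefore does not show that the others hold values other than whole reads. Reads were taken as recovered in those 6, for edgeR 4.0.16 as an alternative. The other libraries were left out on the stricter measure alone, and a count test of every library was not run. The edgeR fit with age has 1 P21 library, so its calls cannot decide whether the falls hold in counts. The scripts were tested on simulated data. Symbols were matched to GENCODE M21 (GRCm38), and start windows came from RefSeq. Named members are Rpl22, the paralog pairs, the 5 largest called falls and rises (otherwise 3 each way by p), the 5 highest and lowest levels and the 3 widest and narrowest spreads (Rplp0 and Rpl19 were singled out after their values were seen). In other lists, examples were taken from the 3 genes of smallest p. Some genes are not reported here. The members and lists were chosen with earlier results of these data known.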

Additional observations from a re-analysis of the deposited data

Results flagged for a closer look

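Of 99 groups of values examined over 33 quantities (members, ratios and sums named above), 2 held a library far from the others of its group, and chance alone gives about 1 in 20. Rpl22 was 33.5 units in replicate 5 of HFD P0, against 61.8 to 78.9 in the other 4 libraries. That library also had the lowest ribosomal share, the lowest Mki67 and the highest Pomc of the HFD P0 group. The ratio of Rpl7l1 to Rpl7 was 0.694 in replicate 4 of HFD P21, against 0.473 to 0.482 in the other 3. That library had the lowest Rpl7 signal of its group, 171 units, and the lowest ribosomal share, 1.13%.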

How the results depend on the processing

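No member passed in the diet comparisons or the diet by age term under any alternative run. The 44 calls with age in chow offspring became 6 after centring on the ribosomal median, 0 with edgeR on the reads recovered in 1 P21 and 3 P0 libraries (9 at an unadjusted p under 0.05, median -0.59, where 926 genes passed), and 18 (without chow P21 replicate 2) to 51 with 1 library left out. Without chow P0 replicates 1 and 2, chosen after seeing the data, 31 members fell and 1 (Rpl3) rose. The 38 calls in HFD offspring became 62 with the replicate block, 18 after centring, and 24 (without HFD P21 replicate 4) to 58 (without HFD P0 replicate 5) with 1 library left out. Of the 44 chow calls 17 were kept in every fit with 1 library left out, and of the 38 HFD calls 23, all of them falls. Scaling every library to the same sum moved the median of all genes in HFD offspring to -0.21, with 51 members lower and none higher. Per kilobase of principal transcript the median level in chow P0 was 286. With the replicate block the chow count was 51, but same-numbered libraries did not deviate together at every number (correlations from -0.18 to 0.50), so the numbers pair no samples. Chosen after seeing the data were edgeR, centring, the principal length, leaving out chow P0 replicates 1 and 2 and leaving libraries out of the ratios.

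The signs that turned belonged to values that passed no test. For HFD against chow at P21, Rpl41 was at 0.0151 with the replicate block and from -0.171 to 0.0151 with 1 library left out (highest without HFD P21 replicate 4), and Rps12 at 0.00905 and from -0.301 to 0.00905 in the same way. Rpl22 was at 0.0364 with quantile scaling, 0.0701 with the replicate block and from -0.175 to 0.0701 with 1 library left out (above 0 without HFD P21 replicate 2 or 4). With age, Rps27 was at -0.0519 in chow offspring with the replicate block and at 0.17 in HFD offspring with quantile scaling, where Rpl3 was at -0.11. With 1 library left out, the ratio of Rps27l to Rps27 ran from -0.128 to 0.10 between the diets at P21 (above 0 without HFD P21 replicate 2 or chow P21 replicate 3) and from -0.181 to 0.0611 with age in HFD offspring (above 0 without HFD P21 replicate 2). The cause was not tested. No member was near the depth limit: the lowest value, 1.17 units, compares with 0.0826 to 0.138 units for 3 reads.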
